A study of Mus musculus with 8 samples.

Results

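The 40 genes described here encode proteins of the mitochondrial ribosome, 22 named for its large subunit (Mrpl) and 18 named for its small subunit (Mrps). They were taken by gene symbol from tables of transcript level that hold 43239 distinct gene names, and each of the 40 was found under its own symbol. All 40 had a mean level of at least 1 FPKM (fragments scaled to transcript length and to the size of the library), the limit for testing, which 11878 genes reached. The tables come from quadriceps, a thigh muscle, of 6-month-old female mice. One group was labelled wild type (WT, 4 mice) and the other Mss51-/- (KO, 4 mice), with 1 RNA-seq library per mouse. Mss51 encodes a mitochondrial protein of skeletal muscle, and the labels give neither the way the allele was made nor the genetic background of the mice. The comparison of the groups asks how muscle transcripts differ when Mss51 is deleted.

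The mitochondrial ribosome translates the few messages encoded by mitochondrial DNA, all of them core subunits of the respiratory chain or of ATP synthase. Its ribosomal RNAs are encoded in mitochondrial DNA, whereas its proteins are encoded in the nucleus, made in the cytosol and imported. The small subunit decodes the message, and the large subunit joins the amino acids and passes the growing chain to the inner membrane. Many of its proteins descend from bacterial ribosomal proteins, and others were added in mitochondria. Skeletal muscle is rich in mitochondria and depends on this machinery for oxidative ATP production.

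Mss51 itself went against its label. Its level was 22.9, 37, 27.5 and 24.8 FPKM in the WT-labelled libraries and 340, 201, 216 and 207 FPKM in the KO-labelled libraries, a difference of 3.07 ± 0.20 on the log2 scale (SE, limma adjusted p = 0.000643). Every library labelled KO was above every library labelled WT. The labels do not say which part of the gene was deleted, so a level per gene does not show whether the remaining transcript was intact. Whether the labels were exchanged was not tested, and if they were, each direction given below by label would turn. The groups are therefore called by their labels throughout. Muscle identity was checked with 14 fibre transcripts, of which 13 were found, with summed levels of 53045 to 58421 FPKM under the WT label and 49777 to 57375 under the KO label. Within that list Myh4, the fast myosin heavy chain, was listed at 0 in all 8 libraries and the fast troponin Tnnt3 in 4 of them, so a listed 0 in these tables can be a failed estimate. No member was listed at 0 in any library. The labels state 50 M read pairs per library, and the depth of each library is not known from FPKM.

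The upstream sequences of the 3 members with the smallest p in each subunit are shown because the differences described here were clearest in those genes. They are 150 bases each from RefSeq promoters on GRCm38.p6 (the mm10 assembly), written 5′ to 3′ on the strand of the gene and ending before the annotated start of the gene. The windows are Mrpl12 at chr11:120484463-120484612 on the plus strand, Mrpl34 at chr8:71464776-71464925 on the plus strand, Mrpl41 at chr2:24975099-24975248 on the minus strand, Mrps9 at chr1:42851083-42851232 on the plus strand, Mrps23 at chr11:88204238-88204387 on the plus strand and Mrps33 at chr6:39810989-39811138 on the minus strand. Capitals mark exact matches, on either strand, to 1 of 5 short motifs of factors known for mitochondrial or housekeeping genes.
Mrpl12: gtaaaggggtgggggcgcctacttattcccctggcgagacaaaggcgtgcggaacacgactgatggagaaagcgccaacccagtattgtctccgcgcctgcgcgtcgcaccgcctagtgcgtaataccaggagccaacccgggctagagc
Mrpl34: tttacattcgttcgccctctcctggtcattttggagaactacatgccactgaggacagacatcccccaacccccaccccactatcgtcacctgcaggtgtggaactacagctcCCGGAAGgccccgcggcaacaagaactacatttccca
Mrpl41: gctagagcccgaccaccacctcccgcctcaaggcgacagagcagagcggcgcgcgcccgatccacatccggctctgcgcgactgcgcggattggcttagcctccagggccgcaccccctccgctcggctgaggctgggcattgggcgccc
Mrps9: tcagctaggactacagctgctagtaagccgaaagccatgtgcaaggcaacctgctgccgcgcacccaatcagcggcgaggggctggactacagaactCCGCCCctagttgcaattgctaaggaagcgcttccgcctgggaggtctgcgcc
Mrps23: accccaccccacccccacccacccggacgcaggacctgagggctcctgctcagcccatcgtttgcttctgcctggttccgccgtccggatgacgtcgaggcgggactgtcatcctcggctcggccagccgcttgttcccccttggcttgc
Mrps33: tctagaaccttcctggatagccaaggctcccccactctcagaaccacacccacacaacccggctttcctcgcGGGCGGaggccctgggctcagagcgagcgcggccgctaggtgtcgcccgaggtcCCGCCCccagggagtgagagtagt
The motifs searched were GCGCATGCG (NRF1), CCGGAAG (ETS factors such as GABP), AAGATGGC (YY1), AAGGTCA (oestrogen-related receptors, ERR) and GGGCGG (Sp1/KLF). Among the 6 windows, Mrpl34 held an ETS match that starts 37 bases before its RefSeq start site. Mrps9 held 1 Sp1/KLF match, 53 bases before the start, and Mrps33 held 2, at 130 and 76 bases. Mrpl12, Mrpl41 and Mrps23 held none of these letters in the 250 upstream bases searched.

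Over the 35 of 40 members with a RefSeq promoter, the NRF1 letters occurred in 3 promoters (8.57%), against 3.26% of 8309 tested genes and 1.86% of all 20592 promoters of the same length. These 3 were Mrpl9, Mrpl10 and Mrps18b. ETS letters occurred in 6 member promoters (17.1%; 14.3% of tested genes and 8.59% of all promoters), in Mrpl3, Mrpl27, Mrpl34, Mrpl51, Mrps22 and Mrps27. YY1 letters were present in Mrps11 and Mrps12 (5.71%; 2.17% of tested genes and 1.55% of all), and ERR letters in Mrps15 (2.86%; 2.55% and 3.69%). Sp1/KLF letters were present in 16 member promoters (45.7%), against 61.1% of tested genes and 39.6% of all promoters. They were found in 5 of 18 large-subunit promoters and 11 of 17 small-subunit promoters, a difference that was not tested. Of the 8 matched members whose labelled groups did not overlap in level, 4 held Sp1/KLF letters, 1 held NRF1 letters and 1 held ETS letters. Of the other 27 matched members, 12 held Sp1/KLF letters, 2 held NRF1 letters and 5 held ETS letters. Some windows, such as those of Mrpl1 and Mrps10, lie inside the annotated gene. All these matches describe letters in a window and were not tested as binding sites.

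The members spanned a wide range of levels in quadriceps, from 5.23 FPKM for Mrpl19 to 593 FPKM for Mrpl42, with a median of 45.4 FPKM. The median of all tested genes was 8.65 FPKM. FPKM is scaled to transcript length, but the annotation and settings behind it are not given, so the order of levels between genes is approximate. Large-subunit members had a median level of 51.1 FPKM and small-subunit members 28.8 FPKM, and 22 of the 40 lay between 30 and 100 FPKM. Neighbours in the order mostly overlapped in their libraries, as the plot of level by library shows, with Mrpl42 and Mrpl19 standing clear of theirs.

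Mrpl42, a protein of the large subunit with no bacterial counterpart, was the highest member in all 8 libraries. Its levels were 496, 601, 563 and 570 FPKM under the WT label and 613, 608, 646 and 647 FPKM under the KO label. It alone made up 21.8% to 24.7% of the summed FPKM of the 40 members. The groups did not overlap, although the lowest KO-labelled library (608) was close to the highest WT-labelled one (601). The difference was 0.18 ± 0.08 on the log2 scale (limma adjusted p = 0.486). The next levels in the large subunit were those of Mrpl34 and Mrpl30. Mrpl30 averaged 128 ± 11.3 FPKM under the WT label and 147 ± 7.3 FPKM under the KO label (SD, n = 4 each).

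At the other end, Mrpl19, a conserved protein at the face that meets the small subunit, had 5.31, 4.85, 4.71 and 4.44 FPKM under the WT label and 4.99, 5.94, 5.59 and 5.98 FPKM under the KO label. Its groups overlapped through the first library of each label, and the difference was 0.20 ± 0.09 (limma adjusted p = 0.502). Mrpl1, which forms the L1 stalk where spent tRNA leaves, had 15.2, 15.6, 14.4 and 14.5 FPKM under the WT label and 16.7, 17.5, 18.2 and 15.3 FPKM under the KO label. Only KO-labelled library 4 fell within the WT-labelled range, and the difference was 0.17 ± 0.07 (limma adjusted p = 0.479).

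In the small subunit the highest level belonged to Mrps16, a conserved protein that joins the subunit early in assembly. It had 88.2, 103, 102 and 112 FPKM under the WT label and 121, 111, 106 and 117 FPKM under the KO label. The groups overlapped, and the difference was 0.17 ± 0.09 (limma adjusted p = 0.532), or 0.11 without WT-labelled library 1. Mrps16 is also the only member on chromosome 14, at chr14:20389304-20393634, 89.2 kb from Mss51 at chr14:20482867-20496901. Its difference was close to the median of the members. Whether the Mss51 allele affects this neighbour was not tested.

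The lowest small-subunit levels were those of Mrps2 and Mrps25. Mrps2, a conserved protein, had 11.1, 9.82, 9.98 and 10.2 FPKM under the WT label and 10.1, 12.6, 12.4 and 12.8 FPKM under the KO label. KO-labelled libraries 2 to 4 were above every WT-labelled library and library 1 was not, for a difference of 0.21 ± 0.09 (limma adjusted p = 0.477). Mrps25, which has no bacterial counterpart, averaged 12.3 ± 0.775 FPKM under the WT label and 12.2 ± 1.51 FPKM under the KO label (SD, n = 4 each).

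**Figure D1:**
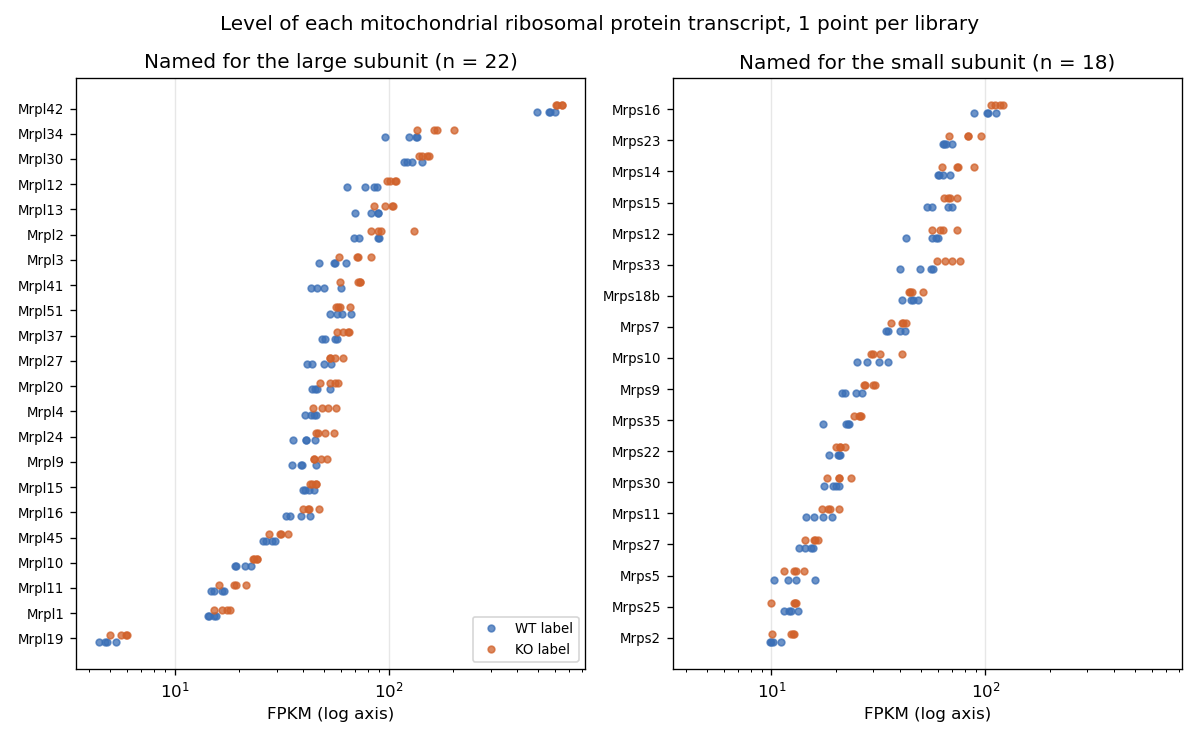
FPKM of each member on a log axis, 1 point per library, WT-labelled libraries in blue and KO-labelled libraries in orange, with large-subunit genes on the left and small-subunit genes on the right. Mrpl42 lies between 496 and 647 FPKM, apart from all others, and Mrpl19 between 4.44 and 5.98 FPKM is the lowest.

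Transcripts of the mitochondrial ribosome were slightly higher in the KO-labelled libraries across nearly the whole set, but no single member passed the test. The median difference over the 40 members was 0.20 on the log2 scale, or 15% higher, with a range from -0.02 for Mrps25 to 0.48 for Mrpl41. Over all tested genes the median was 0.02. The value was above 0 for 39 of 40 members, against 54.4% of tested genes. This count became 19 of 40 after rescaling each library to the same total over named entries (called TPM here). That rescaling moved the median of all tested genes to -0.18. The share of tested genes above 0 under TPM is not given, here or beside the TPM counts below. The rescaling depends on single entries, Gm22953 with 41.8% of the named total in WT-labelled library 3 and Atg7 with 54.9% in KO-labelled library 4. Set against the median of all genes, 37 of 40 members were above it in FPKM and 37 of 40 in TPM. Dividing each library by its own total moves all genes nearly together, so these equal counts are no check on the scaling.

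None of the 40 members reached an adjusted p under 0.05 in limma, a limit that 0.0505% of tested genes (6 genes) passed. Without KO-labelled library 1 the number of genes that passed was 125, with no member among them. The smallest adjusted p of a member, over all 8 libraries, was 0.336, for Mrpl41. At an unadjusted p under 0.05, 20 members were higher under the KO label and none was lower, and 7.5% of tested genes were higher at that limit. In 9 members every KO-labelled library was above every WT-labelled library, which held for 3.89% of tested genes. No member had every KO-labelled library below every WT-labelled one, as 1.61% of tested genes did. The count of 9 depended on the scaling, with 0 members under TPM (0.101% of tested genes) and 4 after median-of-ratios scaling (2.83%). It was 17 without KO-labelled library 1 (9.35% of tested genes), 15 without WT-labelled library 4 (7.28%), and 14 without WT-labelled library 2 (5.6%) or KO-labelled library 4 (5.56%), where fewer libraries have to be separated. With 4 libraries against 4, an exact permutation test over the 70 assignments cannot give a two-sided p below 0.0286. Those 9 members reached it among the 40 tested. Groups that do not overlap always give this value, so it restates the lack of overlap. In whole muscle, a difference in the number of cells of a type and a difference in RNA per cell cannot be told apart.

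**Figure D2:**
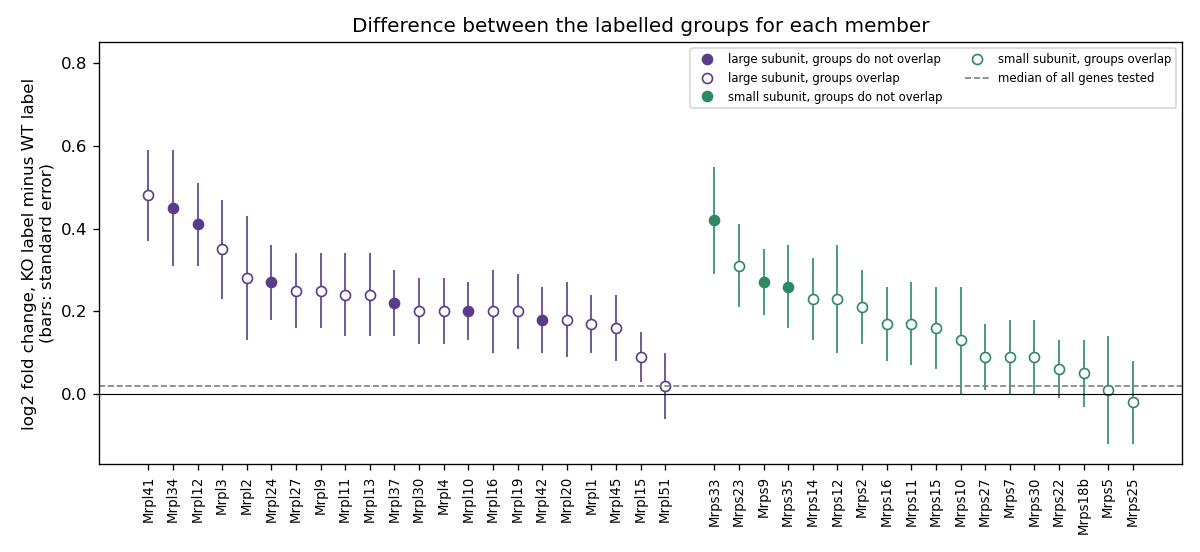
Difference of each member between KO-labelled and WT-labelled libraries on the log2(FPKM + 0.5) scale, with the standard error from limma, ordered within each subunit. Filled points are the 9 members whose groups did not overlap, and 39 of 40 points lie above 0, a count that becomes 19 after rescaling to TPM.

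Among the large-subunit members, all 22 had values above 0 (12 of 22 under TPM), against 54.4% of tested genes in FPKM. That share does not apply to the TPM count, since the median of all tested genes was -0.18 under TPM. At an unadjusted p under 0.05 in limma, 15 of the 22 were higher, against 7.5% of tested genes. The median of the 22 was 0.21. The 3 members with the smallest p also had the 3 largest differences. Mrpl41, a protein of the large subunit that bacteria lack, had 43.6, 50, 46.2 and 60 FPKM in the libraries labelled WT. It had 59.5, 73.3, 73.8 and 71.9 FPKM in those labelled KO. Only WT-labelled library 4 and KO-labelled library 1 met, and the difference was 0.48 ± 0.11 (39.5% higher, limma adjusted p = 0.336, exact permutation p = 0.0571).

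Mrpl12 belongs to the flexible stalk that recruits the GTPase translation factors, and it also binds the mitochondrial RNA polymerase. Its levels were 63.6, 85.4, 77.3 and 88.4 FPKM under the WT label and 102, 107, 108 and 98.2 FPKM under the KO label. The groups did not overlap, the KO-labelled libraries lay close together, and the difference was 0.41 ± 0.10 (32.4% higher, limma adjusted p = 0.347, exact permutation p = 0.0286). Mrpl10 anchors Mrpl12 to the ribosome and Mrpl11 sits at the base of the same stalk. Mrpl10 had 19.2, 21.4, 22.8 and 19.4 FPKM under the WT label and 23.6, 23.3, 24.3 and 24.3 under the KO label, again without overlap, for a difference of 0.20 ± 0.07 (limma adjusted p = 0.411). For Mrpl11 the difference was 0.24 ± 0.10, and its groups overlapped.

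Mrpl34, a short and very basic conserved protein, had 96.4, 123.8, 135.6 and 133.6 FPKM under the WT label and 136.1, 201.8, 163.4 and 169.1 FPKM under the KO label. WT-labelled library 1 was the lowest and KO-labelled library 2 the highest, and the groups came as close as 135.6 and 136.1 FPKM without overlapping. The difference was 0.45 ± 0.14 (36.7% higher, limma adjusted p = 0.357, exact permutation p = 0.0286). Mrpl24 and Mrpl37 completed the 6 large-subunit members without overlap. Mrpl24, near the exit of the peptide tunnel, went from 40.9 ± 3.93 to 49.6 ± 4.37 FPKM (SD, n = 4 each), a difference of 0.27. Mrpl37, a mitochondrial addition, went from 53.2 ± 4.14 to 62.1 ± 3.47 FPKM, a difference of 0.22.

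The proteins closest to the catalytic centre and the tunnel had differences of the same order. They were 0.35 for Mrpl3 and 0.28 for Mrpl2, conserved proteins of the catalytic region, 0.25 for Mrpl27, whose bacterial relative reaches into that centre, and 0.20 for Mrpl16. Mrpl4, which lines the tunnel, stood at 0.20. Mrpl45, which tethers the ribosome to the inner membrane, stood at 0.16. Mrpl2 was the most variable member within groups, with a standard deviation of 0.25 on the log2 scale against a median of 0.13 over the members and 0.18 over tested genes. Its KO-labelled library 3 (131 FPKM) was above the other 3 (82.5 to 91.9 FPKM), and without it the difference was 0.14.

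Of the remaining large-subunit members, Mrpl9 stood at 0.25, Mrpl13 at 0.24, Mrpl30 at 0.20, Mrpl20 at 0.18 and Mrpl15 at 0.09. Mrpl15 was the steadiest member, with a within-group standard deviation of 0.06. Mrpl51, a protein that bacteria lack, had the smallest difference of the subunit at 0.02, with 59.5 ± 5.48 FPKM under the WT label and 60.1 ± 4.08 FPKM under the KO label, and its sign changed with the scaling (-0.20 under TPM).

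Small-subunit members were above 0 in 17 of 18 cases (7 of 18 under TPM), against 54.4% of tested genes in FPKM. Again the share in FPKM does not apply to the TPM count, with a median of all tested genes of -0.18 under TPM. At an unadjusted p under 0.05 in limma, 5 of the 18 were higher, against 7.5% of tested genes. The median of the 18 was 0.16. The median was 0.06 with the trend on transcript length removed. Mrps33, a small protein without a bacterial counterpart, had 39.8, 55.5, 49.7 and 57.2 FPKM under the WT label and 65, 75.9, 70.1 and 59.5 FPKM under the KO label. The groups did not overlap, and WT-labelled library 1 was lowest. Its difference was 0.42 ± 0.13 (34.1% higher, limma adjusted p = 0.353, exact permutation p = 0.0286).

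Mrps9 is a conserved protein whose tail reaches the tRNA in the decoding site. Its levels were 21.4, 24.9, 22.2 and 26.5 FPKM under the WT label and 27.4, 30.4, 29.7 and 27 FPKM under the KO label. The groups were adjacent without overlap, and the difference was 0.27 ± 0.08 (20.5% higher, limma adjusted p = 0.356, exact permutation p = 0.0286). Mrps23, a mitochondrial addition, had 65.2, 69.6, 63.9 and 63.3 FPKM under the WT label and 67.7, 95.2, 82.8 and 82.6 FPKM under the KO label. KO-labelled library 1 fell within the WT-labelled range and the other 3 were above it, for a difference of 0.31 ± 0.10 (24.3% higher, limma adjusted p = 0.357, exact permutation p = 0.0571). Without that library the adjusted p of Mrps23 was 0.061, the smallest of any member under any setting tried.

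Mrps35, a mitochondria-specific protein, was the third small-subunit member without overlap, with 17.4, 22.4, 23 and 22.7 FPKM under the WT label and 26, 26.2, 25.8 and 24.4 FPKM under the KO label. WT-labelled library 1 stood below the other 3, and the difference was 0.26 ± 0.10 (limma adjusted p = 0.411) and 0.17 without that library. Mrps25 had the only difference below 0, at -0.02 ± 0.10 (limma adjusted p = 0.964). Its levels were 12.3, 12.1, 11.5 and 13.3 FPKM under the WT label and 9.93, 12.8, 12.9 and 13.1 FPKM under the KO label. KO-labelled library 1 alone was low, and without it the difference was 0.07.

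The other conserved small-subunit members spread widely. Mrps12, at the decoding centre, stood at 0.23 and Mrps14 also at 0.23, Mrps11 at 0.17, Mrps15 at 0.16, Mrps10 at 0.13, Mrps7 at 0.09 and Mrps5 at 0.01. Mrps18b, one of the S18-related proteins, stood at 0.05. Among mitochondrial additions, Mrps27, a protein with pentatricopeptide repeats, stood at 0.09 and Mrps22 at 0.06. Mrps30 stood at 0.09, and despite its name it is a protein of the large subunit in structures of the mammalian mitochondrial ribosome. Several of these values rested on 1 library. Without WT-labelled library 1, Mrps12 stood at 0.12, Mrps11 at 0.10, Mrps15 at 0.09, Mrps7 at 0.04 and Mrps5 at 0.12. Without KO-labelled library 1, Mrps10 stood at 0.02, and without KO-labelled library 2, Mrps14 stood at 0.15 and Mrps30 at 0.03. Without WT-labelled library 3, Mrps10 and Mrps27 stood at 0.05 and Mrps22 at 0.02. Under TPM, 9 of these 11 members were below 0, all but Mrps12 and Mrps14.

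Conserved and mitochondria-specific members had medians close to each other. The 28 members with a bacterial homologue had a median of 0.20, with 28 of 28 above 0 (14 under TPM). Their groups did not overlap in 5 cases (17.9%, against 3.89% of tested genes). The 12 members added in mitochondria had a median of 0.17, with 11 of 12 above 0 (5 under TPM) and 4 without overlap (33.3%). The difference between these classes was not tested.

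On the FPKM scale each subunit was lower, averaged over its members, in every WT-labelled library than in any KO-labelled library. The median large-subunit level was 43.5, 49.8, 44.8 and 50.1 FPKM in WT-labelled libraries 1 to 4 and 54.7, 57.8, 54.5 and 54 FPKM in KO-labelled libraries 1 to 4. For the small subunit the medians were 24.8, 28.4, 24.1 and 30.7 FPKM under the WT label and 34.1, 30.1, 30.9 and 28.1 FPKM under the KO label. The large-subunit medians did not overlap between labels, whereas the small-subunit medians did. WT-labelled library 1 held the lowest value of 25 of the 40 members, and KO-labelled library 2 held the highest value of 16.

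The gap between the subunits varied little among libraries. The mean log2 level of large-subunit members exceeded that of small-subunit members by 0.63, 0.68, 0.70 and 0.68 under the WT label and by 0.71, 0.72, 0.79 and 0.76 under the KO label. The labels were therefore separated by as little as 0.01. With Mrps30 counted in the large subunit, the values were 0.55, 0.58, 0.60 and 0.59 under the WT label and 0.60, 0.63, 0.69 and 0.66 under the KO label, so that the groups met at 0.60. Whether the subunits differed between labels was not tested, since the members were chosen with results of these libraries known.

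**Figure D3:**
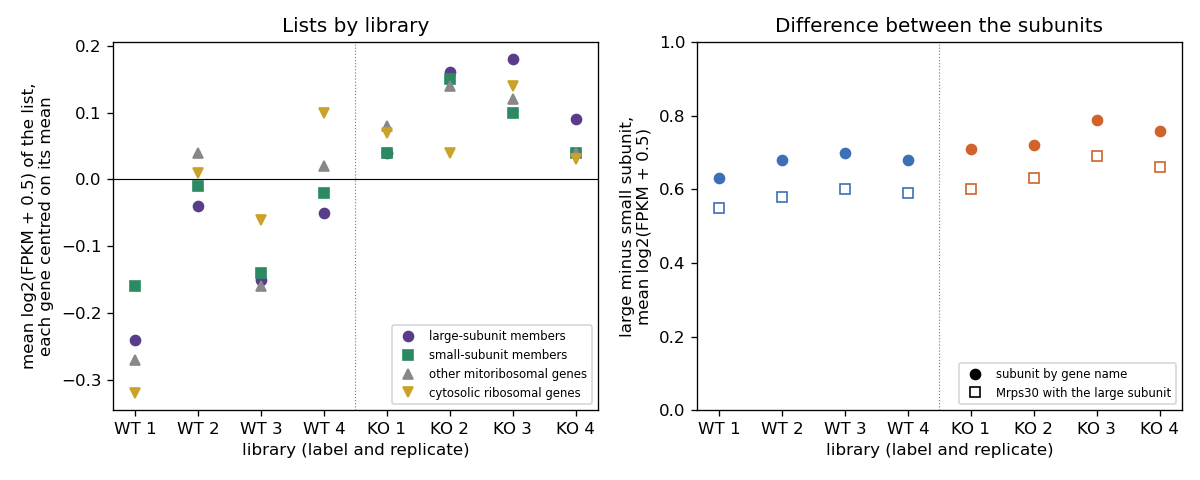
Left, the mean log2(FPKM + 0.5) of each gene list per library, each gene centred on its mean over the 8 libraries; right, the mean log2 level of large-subunit minus small-subunit members per library, by gene name (filled) and with Mrps30 placed in the large subunit (open). In FPKM both subunits are below 0 in all WT-labelled libraries and above 0 in all KO-labelled libraries, whereas the cytosolic ribosomal genes overlap between labels, and the right-hand values run from 0.55 to 0.79; under TPM the subunit medians were 0.01 and -0.05.

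Members with short transcripts tended to have larger differences. Across the 40 members the Spearman correlation between annotated transcript length and log2 difference was -0.32, and it was -0.37 over the 22 large-subunit and -0.26 over the 18 small-subunit members. The same correlation over 10989 tested genes with a length was -0.28. These values describe genes of the same 8 libraries, which are not independent. Members are short, with a median of 1378 bases against 2864 over tested genes.

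Set against genes of like length, the median of the members was above that of all genes in every length range, by least between 800 and 1200 bases. The 5 members under 800 bases, which include Mrpl34, Mrpl41 and Mrpl42, had a median of 0.25 against 0.12 over all genes of that length. From 800 to 1200 bases the medians were 0.18 over 10 members and 0.13 over all genes, and from 1200 to 2000 bases they were 0.24 over 11 members and 0.07. For 2000 to 4000 bases they were 0.17 over 9 members and 0.02, and for the 5 members of at least 4000 bases, such as Mrps25 and Mrpl19, 0.09 and -0.04. With the trend on length removed from every library, a step added after the data were seen, the median of the members was 0.13. The part of length in the difference between labels was not tested further.

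**Figure D4:**
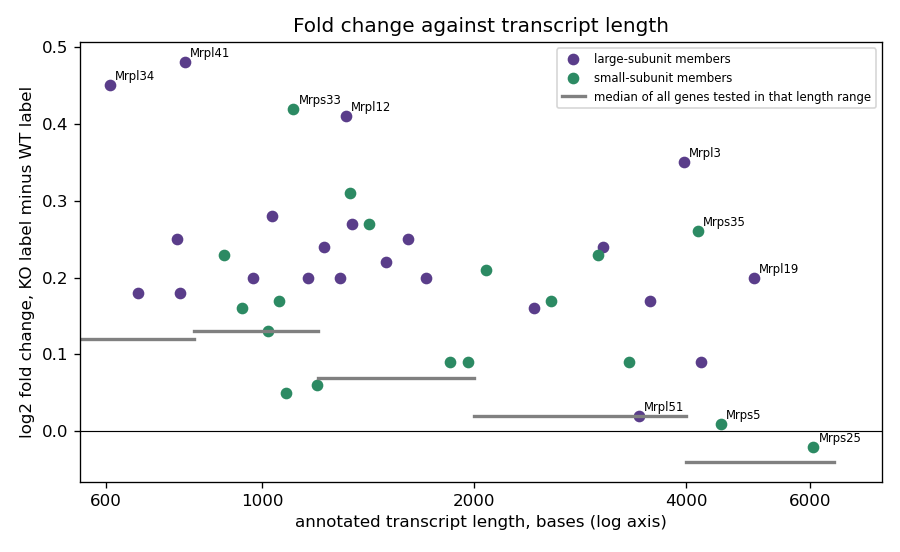
Log2 difference between KO-labelled and WT-labelled libraries against annotated transcript length (log axis), 1 point per member, with grey lines for the median of all tested genes in each length range. The grey lines fall from 0.13 for genes of 800 to 1200 bases to -0.04 for those of at least 4000 bases, and the median of the members is above the line in each range (in FPKM; TPM turned 20 members below 0).

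Some members share sequence with other loci, which could affect how fragments were assigned. Mrps33 has a processed pseudogene, Gm5776, that is 99.7% identical over 321 of its 1107 transcript bases. Gm5776, singled out after its values were seen, had 8.52, 10.6, 10.1 and 17.8 FPKM under the WT label and 5.74, 5.91, 4.72 and 8.46 FPKM under the KO label. It was thus lower where Mrps33 was higher, with a difference of -0.85 (limma adjusted p = 0.347), and the 2 values are uncertain for that reason. The pseudogene copies of Mrpl41 and Mrpl42 had mean levels of 0 and 0.0944 FPKM.

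Whether counting used the strand of the reads is not stated. Exons of Mrps25 overlap those of a gene on the opposite strand (Nr2c2) over 69.8% of their length, those of Mrpl19 over 36% (Gcfc2), those of Mrps18b over 30.5% (Gm16279), those of Mrpl24 over 26.3% (Rrnad1) and those of Mrps27 over 24.2% (6430562O15Rik). The share was 13.05% for Mrpl12 and 14.05% for Mrpl10. If strand was not used, fragments of these genes and of their antisense partners cannot be told apart where they overlap.

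Other mitoribosomal proteins and their assembly factors had medians near that of the members. Among the 43 tested genes for other mitoribosomal proteins, the groups did not overlap in 10 (23.3%, against 3.89% of tested genes). Of the 43, 41 were above 0 (16 under TPM), with a median of 0.19. The 3 with the smallest p were Mrpl55 (0.33), whose entry is joined with a Rik gene, Gadd45gip1 (0.34), a large-subunit protein also called CRIF1, and Mrpl53 (0.39), whose entry is joined with Ccdc142. Each had a limma adjusted p of 0.347. Assembly factors of the mitoribosome were above 0 in 27 of 28 cases (9 under TPM), with a median of 0.15. Their groups did not overlap in only 2 cases (7.14%, against 3.89% of tested genes). Their smallest p values belonged to Rpusd4 (0.26, limma adjusted p = 0.357), a pseudouridine synthase of the large ribosomal RNA, Mtg2 (0.30, 0.384), a GTPase, and Ngrn (0.31, 0.408).

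Factors that work on the ribosome were less uniform. Of 14 translation factors 12 were above 0 (4 under TPM), with a median of 0.14, and in none was every KO-labelled library above every WT-labelled one. Tsfm, the exchange factor of the elongation factor Tu, went from 16.7 ± 2.8 to 22.7 ± 2.28 FPKM, a difference of 0.44 (limma adjusted p = 0.347). Gfm2, which takes part in recycling the subunits, was lower in every KO-labelled library, from 31.3 ± 0.543 to 27.6 ± 1.84 FPKM, a difference of -0.18 (limma adjusted p = 0.414). Taco1, an activator of the translation of cytochrome oxidase subunit I, stood at 0.18 (limma adjusted p = 0.427).

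Mitochondrial aminoacyl-tRNA synthetases and the related amidotransferase had a lower median than the members, at 0.08. Of these 22 genes, 18 were above 0 (5 under TPM) and 1 was without overlap (4.55%, against 3.89% of tested genes). Those with the smallest p were Qrsl1 (0.40, limma adjusted p = 0.353), a subunit of the amidotransferase that makes glutaminyl-tRNA, Nars2 (0.26, 0.499) and Cars2 (0.18, 0.499). No gene of these 4 lists passed the adjusted limit in either direction. The mitochondrial ribosomal RNAs, named after their values were seen, differed by 0.15 for mt-Rnr1 and -0.01 for mt-Rnr2 (limma adjusted p = 0.786 and 0.987). Their levels follow ribosomal RNA removal, so they are no measure of ribosome number.

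Other gene groups lay on the same side in FPKM. Overlap counts of lists other than the members were not recomputed under TPM. In 18 of 36 nuclear-encoded complex I subunits (50%) the groups did not overlap, against 3.89% of tested genes. These 36 subunits, which dock with the products of mitochondrial translation, had a median of 0.24, with 36 of 36 above 0 (23 under TPM). Their median was 0.12 after quantile normalization and also 0.12 with the length trend removed. Among 75 cytosolic ribosomal proteins, 6 did not overlap (8%). These 75 had a median of 0.15, with 73 of 75 above 0 (11 under TPM). That median was 0.01 after quantile normalization, with 40 of 75 above 0, and 0.01 with the length trend removed, with 44 of 73 above 0. For the 40 members the same settings gave 0.17 and 0.13. WT-labelled library 1, the lowest in most members, was also the lowest for the cytosolic list, at -0.32 relative to the mean of that list, whereas the other 7 libraries lay between -0.06 and 0.14. Without WT-labelled library 1 the cytosolic median was 0.05 and the median of the 40 members was 0.17.

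Summed levels of cell type and fibre type markers overlapped between the labels in every list, but some lists lay to one side gene by gene. Slow-fibre markers, which belong to a class of muscle fibre, were above 0 in 7 of 8 genes (4 under TPM) with a median of 0.22 and a highest value of 1.08. Their sums were 779 to 1283 FPKM under the WT label and 1006 to 2107 under the KO label. In limma 2 of the 8 slow-fibre markers were higher at an unadjusted p under 0.05, against 7.5% of tested genes. So were 3 of 12 tested muscle fibre markers, of which 5 were above 0 and 7 below. Endothelial markers were above 0 in 7 of 8 genes (2 under TPM) with a median of 0.19 (sums of 117 to 160 and 120 to 208 FPKM). All 5 tested erythroid markers of 6 were above 0, under TPM too, with a median of 0.91 (sums of 509 to 1334 and 653 to 3172 FPKM), and 4 of 7 macrophage markers were (1 under TPM), with a median of 0.11 (118 to 155 and 115 to 173 FPKM).

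Other marker lists lay on the opposite side from the members. All 6 fibroblast markers were below 0, with a median of -0.14 (sums of 835 to 932 and 654 to 966 FPKM). So were all 5 tendon markers, with a median of -0.61 (75 to 147 and 51.8 to 131 FPKM), and all 5 smooth muscle and pericyte markers, with a median of -0.14 (149 to 185 and 123 to 179 FPKM). These 3 lists were below 0 in every gene under TPM as well. Adipocyte markers were below 0 in 4 of 6 genes (all 6 under TPM), with sums of 632 to 885 and 657 to 951 FPKM. Their median was -0.26 and their lowest value -1.59. In limma 3 of them were lower at an unadjusted p under 0.05, as were 328 of 11878 tested genes. So were 1 tendon marker and 1 smooth muscle or pericyte marker. Nerve markers had a median of -0.03, with 2 of 5 above 0, or 1 under TPM (25.2 to 35 and 27.1 to 39.5 FPKM). None of these marker genes passed the adjusted limit in limma, and the part of cell or fibre composition in the differences of the members was not tested.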

How the data were processed

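RNA from 8 quadriceps (4 mice per label) was enriched for poly(A) RNA, depleted of ribosomal RNA, primed with random hexamers and sequenced as 150-base pairs, per the labels' protocols. The authors deposited 1 table of FPKM values per library (46036 entries, of which 2379 have no gene name). The submitters' processing notes list the build mm10 and, among tools, Cufflinks 2.2.1, TopHat2 2.1.1, Bowtie2 2.2.6 and FastQC; their settings and the annotation are not given in the sources used here. FPKM keeps no depth per library, and low values showed no whole-fragment steps from which depth could be read, so no count test was run.

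Names listed several times were reduced to the entry with the highest mean. Unnamed entries held 65.8% to 93.2% of the summed FPKM and were left out. The deposited FPKM values were converted to log2(FPKM + 0.5), genes averaging 1 FPKM or more were kept, and the labels were compared with limma 3.58.1 (trended variances, Benjamini-Hochberg over 11878 genes, threshold 0.05) in R 4.3.3. Folds are on this log2 scale, which understates changes of low genes. Exact permutation tests used the 70 assignments (two-sided). The script was tested on simulated data. Gene positions and lengths are from GENCODE M21, sequence copies (at least 95% identity over 150 bases) from blastn 2.17.0, and promoters from RefSeq. Motifs were searched in the 250 bases before the RefSeq start site nearest to the start of the chosen GENCODE transcript. These starts were the same for 11 of 35 members and up to 643 bases apart.

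The members, gene lists and tests were chosen with earlier results of these data known. All 40 members are named. Values per library are given for the 3 smallest p, the 3 largest differences, the 2 highest and 2 lowest levels in each subunit and any value of 0 or below, with a few further members; from each list of the translation system the 3 smallest p are named. Alternatives were other pseudocounts, filters, scalings, variance settings, a replicate block and leaving out each library.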

Additional observations from a re-analysis of the deposited data

Results flagged for a closer look

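In 4 of the 80 groups of 4 libraries (40 members under 2 labels), a single library stood apart from the other 3 by more than Dixon's 95% limit, which chance alone exceeds in about 1 in 20 groups. KO-labelled library 1 was the low one for 3 members: Mrpl41 at 59.5 FPKM (71.9 to 73.8 in the other 3), Mrps2 at 10.1 FPKM (12.4 to 12.8) and Mrps25 at 9.93 FPKM (12.8 to 13.1). WT-labelled library 1 was the low one for Mrps35, at 17.4 FPKM against 22.4 to 23. No cause was tested.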

How the results depend on the processing

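No member passed the adjusted threshold under any setting, and the limits are these. In all genes, 6 passed in the fit as described, 120 after rescaling to TPM (63 higher, 57 lower), 0 with the replicate block, and 4 to 125 with 1 library left out (125 without KO-labelled library 1). Samples with the same number did not deviate together (correlations -0.0105, -0.0775, -0.0809 and 0.00933). Such correlations cannot show whether same-numbered mice were paired in the design, so pairing was not settled. No paired result is drawn from the replicate block. TPM depends on single entries, Gm22953 with 41.8% of the named total in WT-labelled library 3 and Atg7 with 54.9% in KO-labelled library 4. It gave medians of -0.01 for all members, 0.01 for the large and -0.05 for the small subunit, with 19 members above 0. Relative to the median of all genes (-0.18), the member median was 0.17, against 0.18 in FPKM. That near-equality follows from dividing each library by 1 number and is no check on the scaling. Rescaling over genes above 0 in every library gave 0.11, 0.12 and 0.07, with 31 members above 0, and removing the length trend gave 0.06 for the small subunit; both were chosen after seeing the data. Members without overlap, a count recomputed after seeing the data, were 9 as described, 0 under TPM, 4 after median-of-ratios scaling, 4 after rescaling over genes above 0, and 9 to 17 with 1 library left out.

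Under TPM the sign turned for Mrpl1 (-0.03), Mrpl4 (-0.01), Mrpl10 (-0.01), Mrpl15 (-0.12), Mrpl16 (-0.01), Mrpl20 (-0.03), Mrpl30 (-0.01), Mrpl42 (-0.04), Mrpl45 (-0.05), Mrpl51 (-0.20), Mrps5 (-0.20), Mrps7 (-0.12), Mrps10 (-0.08), Mrps11 (-0.04), Mrps15 (-0.05), Mrps16 (-0.04), Mrps18b (-0.16), Mrps22 (-0.15), Mrps27 (-0.11) and Mrps30 (-0.12). It turned after rescaling over genes above 0 for Mrpl51 (-0.08), Mrps5 (-0.09), Mrps7 (-0.01), Mrps18b (-0.05), Mrps22 (-0.03) and Mrps30 (-0.01), in quantile normalization for Mrpl51 (-0.02) and Mrps5 (-0.02), in median-of-ratios scaling for Mrpl51 (-0.01) and Mrps5 (-0.02), and with the length trend removed for Mrps18b (-0.07), Mrps22 (-0.05) and Mrps25 (0.03). With 1 library left out, Mrpl51 ranged from -0.03 to 0.07, Mrps5 from -0.09 to 0.12 and Mrps25 from -0.06 to 0.07.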
